A study of Mus musculus with 6 samples.

Results

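Tumor cells release soluble factors that recruit and shape blood vessels, and 9 genes for such secreted inducers of angiogenesis were followed in MC-38GFP cells with and without a knockdown of HIF-1α. They were chosen by name, with earlier results of these data known. Vegfa, Vegfb, Vegfc and Pgf encode ligands of the vascular endothelial growth factor (VEGF) family, Apln the peptide apelin, Adm the peptide adrenomedullin, Angpt1 and Angpt2 the angiopoietins, and Angptl4 an angiopoietin-like protein. All 9 were among the 22880 genes of the deposited table, and all 9 were among the 12014 genes with enough reads to be tested.

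The MC-38GFP line was derived from a colon adenocarcinoma of the mouse and makes green fluorescent protein (GFP). Its cells were grown as orthotopic tumors in the cecum wall of C57BL/6J hosts, whose own cells kept normal Hif1a, and no line had been passaged in vivo beforehand. The Mock line was the control, and the HIF-1α-KD line had a stable knockdown of HIF-1α. The comparison asks which transcripts differ between these lines when HIF-1α is lowered in the tumor cells and not in the host. The paper reports that HIF-1α-KD tumors were smaller, less hypoxic and better perfused than Mock tumors. An effect of HIF-1α inside the cells and an effect of the tumor's oxygen supply cannot be told apart here. Living cells positive for GFP and negative for CD45 (leukocytes) and CD31 (endothelium) were sorted, and their RNA was sequenced in 6 libraries, 3 per group. The labels number the libraries 1 to 3 in each group and do not say that they came from separate animals, so the p-values measure only the spread between these libraries, which may be technical.

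HIF-1 is a transcription factor made of the subunits HIF-1α and ARNT. In well-oxygenated cells HIF-1α is hydroxylated by prolyl hydroxylases and degraded, and in hypoxia it accumulates, binds hypoxia response elements with the core letters ACGTG or GCGTG and activates genes of glycolysis and of angiogenesis. VEGF-A acts on the endothelium to drive sprouting and permeability, VEGF-C acts mainly on lymphatic endothelium, apelin and adrenomedullin act through G protein-coupled receptors, and the angiopoietins act through the receptor TIE2, ANGPT1 as an agonist that quiets vessels and ANGPT2 as a context-dependent antagonist.

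The response element of HIF-1 was looked for in RefSeq promoters (GRCm38.p6), which covered 6 of the 9 genes (Vegfa, Vegfb, Vegfc, Pgf, Apln and Adm) with 8 windows. The search used the letters ACGTG and GCGTG on both strands, where CACGT and CACGC are the same elements read from the other strand and CACGTG would count on both. The 250 bases before the start site are shown for Apln, the inducer that passed the test below, for Vegfa, the inducer most often tied to hypoxia, and for Adm and Vegfb, whose stretch outside their exons holds matches, in the direction of transcription and with matches in capitals. They lie at chrX:48034854-48035103 (minus strand), chr17:46032378-46032627 (minus strand), chr7:110627407-110627656 (plus strand) and chr19:6987652-6987901 (minus strand).
Apln: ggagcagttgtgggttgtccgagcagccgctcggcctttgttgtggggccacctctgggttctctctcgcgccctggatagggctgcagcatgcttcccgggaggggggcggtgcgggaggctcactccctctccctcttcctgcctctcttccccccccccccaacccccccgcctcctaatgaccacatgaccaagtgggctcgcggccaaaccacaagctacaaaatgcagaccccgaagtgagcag
Vegfa: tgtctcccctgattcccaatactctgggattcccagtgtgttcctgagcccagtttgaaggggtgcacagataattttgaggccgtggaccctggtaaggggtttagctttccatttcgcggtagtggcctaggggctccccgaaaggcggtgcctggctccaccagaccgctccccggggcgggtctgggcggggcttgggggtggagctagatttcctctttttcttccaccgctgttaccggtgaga
Adm: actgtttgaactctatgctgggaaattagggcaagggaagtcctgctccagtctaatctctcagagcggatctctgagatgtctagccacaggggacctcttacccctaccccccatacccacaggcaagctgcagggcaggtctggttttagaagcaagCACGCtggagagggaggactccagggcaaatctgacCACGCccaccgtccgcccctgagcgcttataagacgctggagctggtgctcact
Vegfb: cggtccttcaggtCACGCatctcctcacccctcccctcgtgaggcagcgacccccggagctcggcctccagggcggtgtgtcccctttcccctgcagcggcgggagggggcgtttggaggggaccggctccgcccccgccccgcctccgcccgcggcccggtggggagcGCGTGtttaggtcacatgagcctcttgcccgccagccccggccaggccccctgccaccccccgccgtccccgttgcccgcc
The stretches of Adm and Vegfb held 2 matches each, which began 90 and 54 bases before the start site in Adm and 237 and 81 bases before it in Vegfb. Those shown for Apln and Vegfa held none, and neither did the stretch of Vegfc. A downstream window of Vegfa (chr17:46025164-46025413), which overlaps exons of the gene, held 2 matches, 218 and 211 bases before its start site. Of the windows of Pgf, which overlap its exons as well, 1 held a match, 124 bases before its start site, and the other held none. In all, 4 of the 8 windows held a match. Among all 32851 promoter windows, 38.6% held at least 1 match in the 250 upstream bases and 16.7% held 2 or more, so a match is common. The matches are a description of letters, and the absence of a match says only that these letters are not in this stretch.

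Each library had between 19845852 and 30809138 reads on genes. Values are the deposited normalized counts (reads divided by 1 factor per library), and levels of different genes are compared only as deposited FPKM, which also divides by gene length. Hif1a itself (ENSMUSG00000021109, chromosome 12, 73901375 to 73947530), the target of the knockdown, had 6914, 5424 and 4945 normalized counts in Mock replicates 1 to 3 and 697.3, 3142 and 1928 in HIF-1α-KD replicates 1 to 3. Every HIF-1α-KD library lay below every Mock library, but the depth of the knockdown differed among them, from 697.3 in replicate 1 to 3142 in replicate 2. The log2 fold change was -1.82 (standard error, SE, 0.46), with an adjusted p of 0.219 in limma, which did not pass the threshold of 0.05. It was -1.21 without HIF-1α-KD replicate 1 and -2.30 without HIF-1α-KD replicate 2. Its exons overlap those of Gm49321 on the same strand and of Gm15283 on the other, so its reads are uncertain to that extent.

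The purity of the sort was read from marker genes. Of 12 endothelial markers, 9 were under 1 FPKM in every library, Sox17, Emcn, Cldn5 and Erg among them at or near 0, and the list summed to 9.69 to 11.6 FPKM in Mock and 8.99 to 10.3 FPKM in HIF-1α-KD libraries. Most of that sum was Egfl7 and Cdh5, an endothelial cadherin, and without them it was at most 2.35 FPKM. Cdh5 had 422.3, 532.1 and 568.9 normalized counts in Mock against 285.5, 395.7 and 197.5 in HIF-1α-KD libraries, without overlap. Its log2 fold change was -0.84 (adjusted p = 0.294 in limma), from -1.08 to -0.58 with 1 library left out. Of the 4 tested endothelial markers, Cdh5 had a negative log2 fold change and 3 had a positive one. Apln, Angpt2 and Pgf are genes that endothelial cells also express. The 12 leukocyte markers, led by the macrophage lysozyme gene Lyz2, summed to 122 to 132 FPKM in Mock and to 77.9, 94.8 and 425 FPKM in HIF-1α-KD replicates 1 to 3, while Cd3e was near 0. The 12 fibroblast and pericyte markers summed to 765 to 2038 FPKM in Mock and 2578 to 4855 FPKM in HIF-1α-KD libraries. Nearly all of this was Col1a1 and Dcn, a collagen and a matrix proteoglycan, and without them the sums overlapped, at 66.9 to 101 FPKM in Mock and 85.8 to 143 FPKM in HIF-1α-KD libraries. Col1a1 had a mean of 907 FPKM in Mock and 2966 FPKM in HIF-1α-KD libraries, without overlap (log2 fold change 1.99, adjusted p = 0.287 in limma), and Dcn 618 and 485 FPKM, with overlap (log2 fold change -0.38, adjusted p = 0.646 in limma). Without Mock replicate 1 the value of Col1a1 was 1.16, and without Mock replicate 3 that of Dcn was -0.05. Thy1 and Pi16 were under 1 FPKM in every library, the only 2 of the 12. The receptor genes Pdgfra (19.6 to 48.4 FPKM) and Pdgfrb (17.5 to 42.3 FPKM) were well above that, and their groups overlapped. The pericyte markers Cspg4 (1.46 to 6.89 FPKM in Mock and 7.80 to 10.2 FPKM in HIF-1α-KD libraries) and Rgs5 (0.259 to 0.529 FPKM and 0.711 to 1.12 FPKM) were higher in every HIF-1α-KD library than in any Mock library, with a limma adjusted p of 0.296 and 0.315 and log2 fold changes of 1.42 and 1.15, or 0.85 for Cspg4 without Mock replicate 1. The 10 colon epithelial markers went against the label of a colon carcinoma: Epcam stayed under 1 FPKM and Cdx2 near 0 in every library, and the list summed to 2.30 to 4.65 FPKM except in Mock replicate 3, with 19.6 FPKM. Enough reads for a test were found for 4 endothelial, 10 leukocyte, 10 fibroblast and pericyte and 4 colon epithelial markers. None of these passed an adjusted p of 0.05 in limma, edgeR or DESeq2. At an unadjusted p under 0.05 in limma there were 4 higher fibroblast and pericyte markers, 1 lower endothelial marker and 0 of the other lists. Of all tested genes, 7.04% were higher and 5.69% lower at that threshold, and 10.4% had every HIF-1α-KD library above every Mock library. The part of other cells in the levels of the inducers was not tested, and in bulk RNA fewer cells of a type and less RNA per cell cannot be told apart.

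Among the 9 inducers, Apln fell, and it was the 1 inducer that passed an adjusted p of 0.05 in limma and edgeR, while DESeq2 also called Angptl4 lower. Across all tested genes 0.391% passed in either direction, 0.383% as lower and 0.00832% as higher. In 7 of the 9 the log2 fold change was negative and in 2 positive, with a median of -0.41 against 0.02 for all tested genes. The inducers were chosen with earlier results of these data known, so these counts and this direction are no independent evidence. The HIF-1α-KD libraries lay wholly below the Mock libraries for Vegfa, Apln and Angptl4 and wholly above them for Vegfc, while the groups overlapped for the other 5, and 19.2% of all tested genes had groups without overlap (8.75% with HIF-1α-KD below and 10.4% above). At an unadjusted p under 0.05 there were 4 lower inducers (Vegfa, Apln, Adm and Angptl4) and 1 higher (Vegfc), beside 5.69% lower and 7.04% higher of all tested genes.

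**Figure D1:**
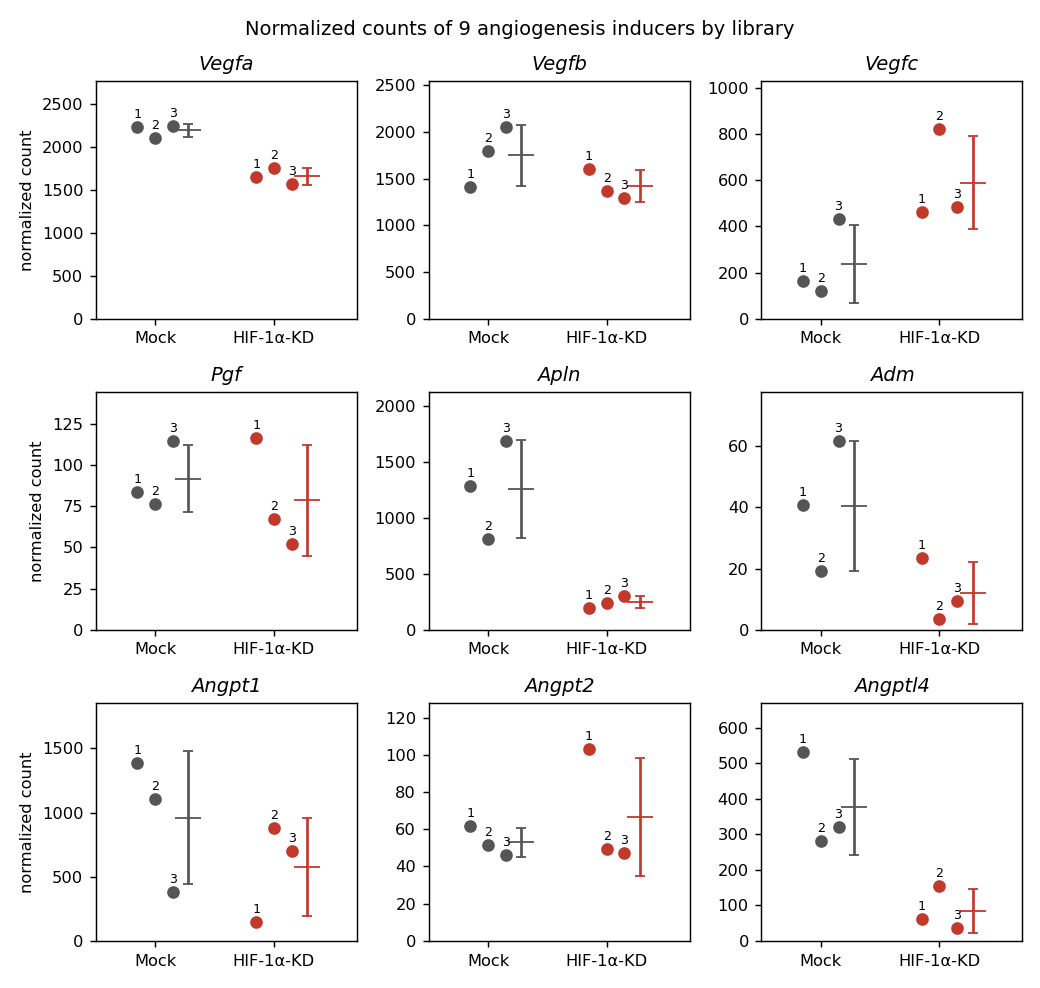
Normalized counts (vertical axes, each from 0) of the 9 inducers, 1 panel a gene, with a point for each library labelled by its replicate number and the mean with its SD beside it (n = 3 per group). The HIF-1α-KD points lie below all Mock points for Vegfa, Apln and Angptl4 and above them for Vegfc.

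Apln (ENSMUSG00000037010, chromosome X, 48025146 to 48034853), the peptide ligand of the endothelial receptor APLNR, had 1283, 812.5 and 1685 normalized counts in Mock against 198.7, 243.4 and 302.6 in HIF-1α-KD libraries. The lowest Mock library still had more than the highest HIF-1α-KD library, and the Mock mean was 5.08 times the HIF-1α-KD mean (1260 ± 437 against 248 ± 52.1, SD, n = 3 each). Its log2 fold change was -2.30 (SE 0.28, 95% interval -2.94 to -1.66, adjusted p = 0.0242 in limma), which ranked 7 by p among 12014 genes. The size held when a library was left out, between -2.58 and -2.06, but the call did not: without Mock replicate 1 the limma adjusted p was 0.109, without Mock replicate 3 0.0907, without HIF-1α-KD replicate 2 0.0798 and without HIF-1α-KD replicate 3 0.0505. Of its receptor Aplnr there were at most 4.83 normalized counts in any library, too few to test, and its other ligand Apela likewise reached at most 3.69.

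Angptl4 (ENSMUSG00000002289, chromosome 17, 33773750 to 33781830) encodes a secreted inhibitor of lipoprotein lipase that also acts on vessel permeability. It had 531.8, 280.4 and 321.3 normalized counts in the Mock libraries and 62.74, 154.7 and 36.96 with the knockdown. The groups did not overlap, and the HIF-1α-KD libraries spread more among themselves (coefficient of variation 73.0%) than the Mock libraries (35.7%). Its log2 fold change of -2.33 (SE 0.49, 95% interval -3.45 to -1.22) was of the size of that of Apln, with a larger error and an adjusted p of 0.139 in limma. The DESeq2 Wald test called it (adjusted p = 2.8e-04), and over all alternatives the adjusted p ranged from 2.8e-04 to 0.452. Lpl, the lipase that the protein inhibits, had a log2 fold change of 0.12 (adjusted p = 0.946 in limma), from -0.51 to 0.52 with 1 library left out.

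Adm (ENSMUSG00000030790, chromosome 7, 110627661 to 110629820), a vasodilator that also stabilizes the endothelial barrier, had the lowest mean FPKM of the inducers in HIF-1α-KD cells. Its normalized counts were 40.62, 19.14 and 61.61 in Mock against 23.33, 3.597 and 9.241 in HIF-1α-KD libraries, from 33, 20 and 51 reads and 29, 3 and 8 reads. HIF-1α-KD replicate 1 lay above Mock replicate 2, so the groups overlapped. The log2 fold change was -1.84 (SE 0.70, 95% interval -3.43 to -0.25, adjusted p = 0.345 in limma), and it was -1.25 without HIF-1α-KD replicate 2, the library with 3 reads. It was -2.45 without HIF-1α-KD replicate 1 and -1.20 with a pseudocount of 10.

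Vegfa (ENSMUSG00000023951, chromosome 17, 46016993 to 46032369) was among the most abundant inducers and the most even one. Its normalized counts were 2232, 2102 and 2240 in Mock against 1649, 1752 and 1562 in HIF-1α-KD libraries, with coefficients of variation of 3.54% and 5.75%. The groups did not overlap, and the Mock mean was 1.32 times the HIF-1α-KD mean. The log2 fold change of -0.41 (SE 0.13, 95% interval -0.70 to -0.11) did not pass the threshold (adjusted p = 0.294 in limma). It stayed between -0.45 and -0.37 with any library left out.

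Vegfb (ENSMUSG00000024962, chromosome 19, 6982473 to 6987651), a ligand of the receptor FLT1 that is little regulated by oxygen, had 1407, 1801 and 2055 normalized counts in Mock against 1609, 1363 and 1288 in HIF-1α-KD libraries. The groups overlapped, since HIF-1α-KD replicate 1 exceeded Mock replicate 1. The log2 fold change was -0.29 (SE 0.18, 95% interval -0.70 to 0.11, adjusted p = 0.535 in limma), and it was -0.17 without Mock replicate 3. Pgf (ENSMUSG00000004791, chromosome 12, 85166635 to 85177790), the placental growth factor and likewise a ligand of FLT1, had 83.71, 76.56 and 114.8 normalized counts in the Mock libraries and 116.6, 67.15 and 51.98 with the knockdown. Its highest and its lowest library were both HIF-1α-KD libraries, and its log2 fold change was -0.28 (SE 0.36, 95% interval -1.09 to 0.53, adjusted p = 0.785 in limma), from -0.60 to -0.03 with 1 library left out.

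Vegfc (ENSMUSG00000031520, chromosome 8, 54077606 to 54187096) went the other way. It had 161.3, 118.7 and 432.4 normalized counts in Mock against 462.5, 821.4 and 482.8 in HIF-1α-KD libraries. Mock replicate 3 lay close below the HIF-1α-KD libraries and well above the other Mock libraries. The mean in HIF-1α-KD libraries was 2.48 times that in Mock, and the log2 fold change was 1.48 (SE 0.45, 95% interval 0.46 to 2.51, adjusted p = 0.276 in limma). It was 2.03 without Mock replicate 3 and 1.10 without Mock replicate 2.

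Per length, Vegfb and Vegfa led in both groups. In Mock, Vegfb had 56.8 to 83.3 FPKM and Vegfa 59.6 to 60.0 FPKM, so their order there is within the spread, and each exceeded at least 83.1% of the tested genes by its mean. Apln followed with 10.7 to 20.9 FPKM, then Angptl4 with 7.73 to 13.7 and Angpt1 with 3.52 to 12.7, which overlapped each other and Apln. Vegfc with 2.63 to 9.01 FPKM, Pgf with 2.02 to 2.84, Adm with 0.759 to 2.30 and Angpt2 with 0.852 to 1.14 came last, each overlapping its neighbour in this order. In HIF-1α-KD libraries Vegfc came next after Vegfb and Vegfa, with 9.93 to 18.4 FPKM, above all 3 libraries of Angpt1, Apln and Angptl4. Apln was then at 2.54 to 4.05 FPKM, and the share of tested genes with a lower mean FPKM was 22.2%, against 54.3% in Mock.

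Among the VEGF ligands of the 9 inducers, Vegfc was the one whose shares did not overlap between the groups. Its share of the summed FPKM of Vegfa, Vegfb, Vegfc and Pgf was 2.75%, 1.85% and 5.80% in Mock against 7.90%, 14.1% and 9.54% in HIF-1α-KD libraries. Vegfa made up 38.7% to 48.9% of the sum in Mock and 36.3% to 39.7% in HIF-1α-KD libraries. The sum of these ligands was 122, 142 and 155 FPKM in Mock against 126, 130 and 114 FPKM in HIF-1α-KD libraries, which overlapped. Vegfd, a further VEGF ligand that is not one of the 9 inducers, had 25.5, 21.7 and 19.6 FPKM in Mock against 5.68, 16.7 and 15.3 FPKM in HIF-1α-KD libraries. With Vegfd the sum was 147, 164 and 175 FPKM in Mock against 131, 147 and 129 FPKM in HIF-1α-KD libraries, so that the lowest Mock and the highest HIF-1α-KD library were both at 147, and the share of Vegfc was 1.60% to 5.15% in Mock and 7.56% to 12.5% in HIF-1α-KD libraries. These shares were not tested.

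**Figure D2:**
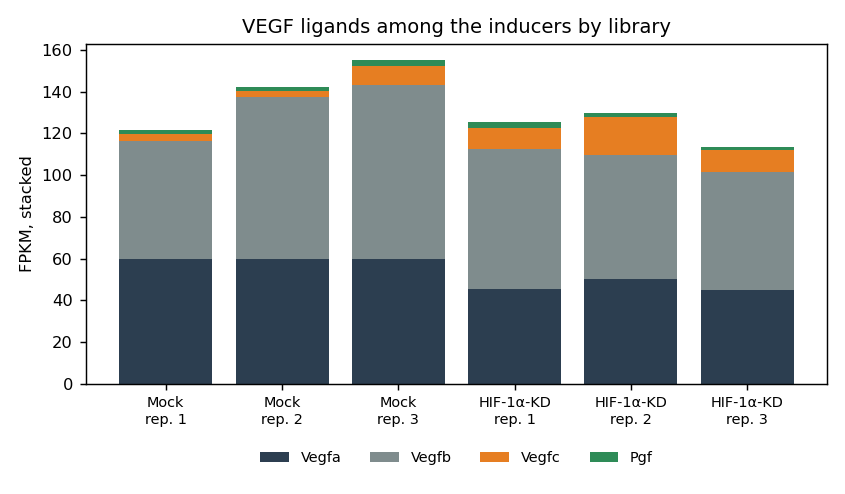
Stacked FPKM (vertical axis) of Vegfa, Vegfb, Vegfc and Pgf in each of the 6 libraries (horizontal axis, rep. is replicate). Vegfa and Vegfb make up most of each bar, and the Vegfc segment is 2.63 to 9.01 FPKM in Mock and 9.93 to 18.4 FPKM in HIF-1α-KD libraries.

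Of the angiopoietins, Angpt1 had the wider spread between libraries. Angpt1 (ENSMUSG00000022309, chromosome 15, 42424723 to 42676977) had 1389, 1102 and 382.9 normalized counts in the Mock libraries and 148.8, 876.5 and 698.8 with the knockdown. Mock replicate 3 and HIF-1α-KD replicate 1 were low, so the groups overlapped, and the SD within groups was 1.21 on the log2 scale, the largest of the 9 inducers. The log2 fold change was -0.89 (SE 0.68, 95% interval -2.45 to 0.66, adjusted p = 0.623 in limma) and -0.10 without HIF-1α-KD replicate 1. Exons of Angpt1 overlap those of Gm17473 on the other strand, and whether the counting used strand is not given in the sources used here. Angpt2 (ENSMUSG00000031465, chromosome 8, 18690263 to 18741562) had 61.55, 51.68 and 45.9 normalized counts in Mock against 103.0, 49.16 and 47.36 in HIF-1α-KD libraries. All but HIF-1α-KD replicate 1 lay close together, with a log2 fold change of 0.24 (SE 0.38, 95% interval -0.62 to 1.09, adjusted p = 0.83 in limma) that turned to -0.12 without that library. The FPKM of Angpt1 was 11.2, 10.6 and 4.13 times that of Angpt2 in Mock against 0.716, 8.83 and 7.31 times in HIF-1α-KD libraries, so that Angpt2 exceeded Angpt1 in HIF-1α-KD replicate 1 alone.

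**Figure D3:**
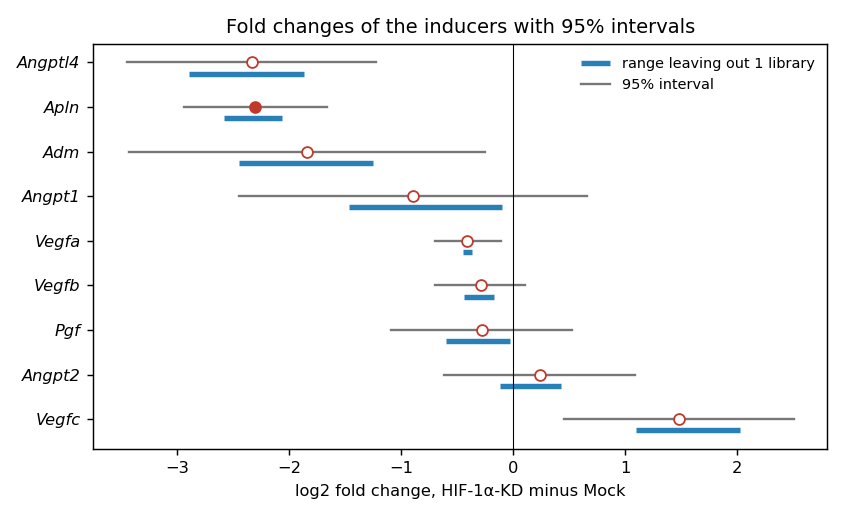
Log2 fold changes of the 9 inducers, HIF-1α-KD minus Mock (horizontal axis; circles, filled where the adjusted p is under 0.05), with 95% intervals in grey and the range over leaving out each of the 6 libraries in blue. The interval of Apln runs from -2.94 to -1.66, and those of Vegfb, Pgf, Angpt1 and Angpt2 cross 0.

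The inducers did not share 1 order of libraries. Hif1a was lowest in HIF-1α-KD replicate 1, and so were Apln, Vegfc and Angpt1 within their group, whereas Angptl4, Vegfa, Vegfb, Pgf and Angpt2 were lowest in HIF-1α-KD replicate 3 and Adm in HIF-1α-KD replicate 2. Relative to the Mock mean on the log2 scale, Angptl4 stood at -2.51, -1.23 and -3.26 in HIF-1α-KD replicates 1 to 3 and Hif1a at -3.03, -0.86 and -1.56. Apln stood at -2.60, -2.30 and -1.99, within a narrower range. HIF-1α-KD replicate 3, with leukocyte markers at 425 FPKM, had the most Apln and the least Angptl4 of its group, and without it their log2 fold changes were -2.45 and -1.87. Mock replicate 3, with the epithelial markers at 19.6 FPKM, was the highest Mock library for 6 of the 9 inducers, Vegfa, Vegfb, Vegfc, Pgf, Apln and Adm, and without it the log2 fold changes of Apln and Vegfc were -2.06 and 2.03.

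**Figure D4:**
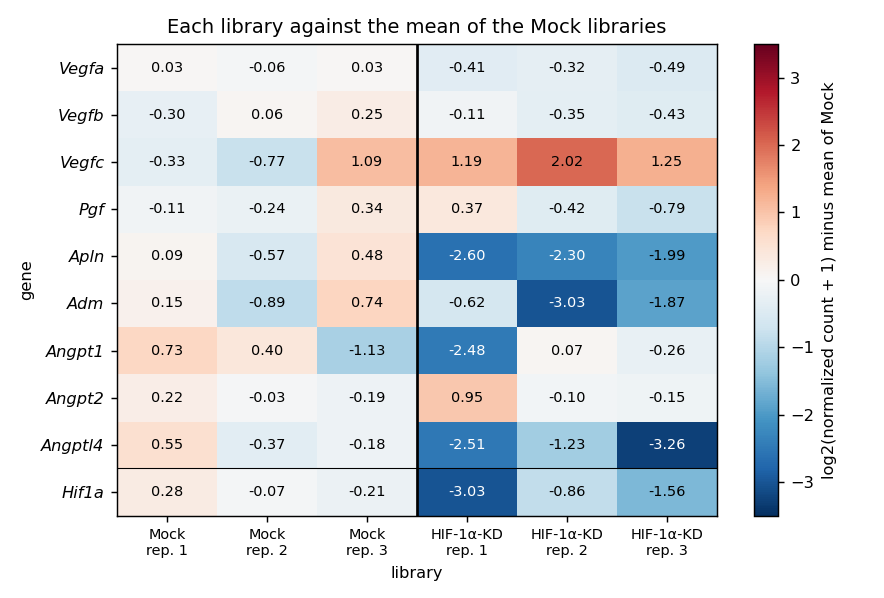
Each library (columns) as log2(normalized count + 1) minus the mean of the 3 Mock libraries, for the 9 inducers and Hif1a (rows), with blue below and red above that mean. The row of Apln holds -2.60 to -1.99 in the HIF-1α-KD columns, that of Vegfc 1.19 to 2.02, and that of Angpt1 is lowest in HIF-1α-KD replicate 1 and Mock replicate 3.

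Which genes had profiles closest to Apln and Angptl4 was asked over all tested genes, by the root mean square distance of log2 values centred on their mean over the 6 libraries. Closest to Apln were Slc2a1, the glucose transporter GLUT1 (distance 0.27), Hilpda, a lipid droplet protein (0.28), and Prl2c2, a proliferin (0.34). Slc2a1 had 11550, 8963 and 17860 normalized counts in the Mock libraries and 3187, 3091 and 4145 with the knockdown, with the same lowest and highest Mock library as Apln. Closest to Angptl4 were 2610528A11Rik (0.27), Bnc1, a zinc finger protein (0.33), and Mpp2, a membrane scaffold protein (0.44), of which Mpp2 had a log2 fold change of -2.37 (adjusted p = 0.0327 in limma), a call lost in 8 of 16 alternatives, among them leaving out any of the 6 libraries (log2 fold change -2.74 to -2.13, limma adjusted p 0.0581 to 0.183). The first pair had at most 39.39 normalized counts in any library.

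The receptors of the inducers were mostly scarce in these cells, which had been sorted as negative for CD31. Of 12 receptors and co-receptors, 8 were tested and none passed an adjusted p of 0.05 in limma, with 2 higher and 1 lower at an unadjusted p under 0.05, and DESeq2 called Ramp3 lower. Kdr, Aplnr, Ramp1 and Tie1 had too few reads. Ramp2 and Nrp2 were the most abundant. Nrp1, another neuropilin, had 18.4 to 33.3 FPKM. Flt1, the receptor named above for Vegfb and Pgf, had 3.02 to 13.7 FPKM in Mock and 12.7 to 19.5 FPKM in HIF-1α-KD libraries, with overlap. The log2 fold change of Flt1 was 1.16 (SE 0.47, adjusted p = 0.375 in limma). Ramp2, which turns the receptor CALCRL into a receptor for adrenomedullin, had 2178, 1987 and 2217 normalized counts in Mock against 1904, 2278 and 2214 in HIF-1α-KD libraries, and its log2 fold change was 0.00 (adjusted p = 0.999 in limma). Ramp3, its alternative partner, had 46.78, 53.59 and 130.5 normalized counts in the Mock libraries and 12.06, 22.78 and 18.48 with the knockdown. These did not overlap, with a log2 fold change of -1.94 (SE 0.48, adjusted p = 0.217 in limma). Nrp2, a neuropilin that binds VEGF-C, had a log2 fold change of 0.48 (SE 0.20, adjusted p = 0.384 in limma) and of 0.31 without HIF-1α-KD replicate 1.

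Of 13 related ligands of the same families, 6 were tested and none passed in limma, edgeR or DESeq2, with 1 lower at an unadjusted p under 0.05. That was Vegfd, the closest relative of Vegfc, with 968.8, 772.3 and 739.3 normalized counts in Mock against 208.3, 588.7 and 536.0 in HIF-1α-KD libraries. Its groups did not overlap and its log2 fold change was -1.02 (SE 0.37, adjusted p = 0.329 in limma), opposite in sign to that of Vegfc, and it was -0.55 without HIF-1α-KD replicate 1. Angptl2, the most abundant of them with a mean of 116 FPKM in Mock and 109 FPKM in HIF-1α-KD libraries, had a log2 fold change of -0.14 (adjusted p = 0.712 in limma).

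Of 27 other secreted angiogenic factors, 14 were tested and none passed in limma, with 2 lower and 2 higher at an unadjusted p under 0.05, and DESeq2 called Fgf7 lower and Ptn higher. Fgf7, a fibroblast growth factor that acts on epithelium, had 597.1, 418.2 and 271.8 normalized counts in the Mock libraries and 119.8, 131.9 and 216.0 with the knockdown, without overlap, and a log2 fold change of -1.43 (SE 0.34, adjusted p = 0.196 in limma). Ptn, the heparin-binding growth factor pleiotrophin, had a log2 fold change of 1.37 (SE 0.45, adjusted p = 0.296 in limma), or 0.91 without HIF-1α-KD replicate 3. Cxcl1, a neutrophil chemokine, had 654.9, 1253 and 507.3 normalized counts in Mock against 74.0, 621.1 and 709.2 in HIF-1α-KD libraries. HIF-1α-KD replicate 1 alone lay far below the rest, and the log2 fold change of -1.22 (SE 0.77, adjusted p = 0.552 in limma) was -0.17 without it. Of 16 genes that process the inducers or set how much of them is available, 9 were tested, none passed in limma, edgeR or DESeq2, and 1 was higher at an unadjusted p under 0.05. That was Mmp9, a protease that frees matrix-bound VEGF, with 2756, 8843 and 12310 normalized counts in Mock against 49040, 14490 and 9763 in HIF-1α-KD libraries. Its groups overlapped, and its log2 fold change was 1.51 (SE 0.66, adjusted p = 0.391 in limma), which became 0.83 without HIF-1α-KD replicate 1 and 0.87 without Mock replicate 1. Mmp14, a membrane-bound protease, had a log2 fold change of 0.43 (SE 0.24, adjusted p = 0.488 in limma) and of 0.16 without Mock replicate 1.

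For comparison, 20 HIF-1 target genes outside angiogenesis were all tested, and 11 of them fell at an adjusted p of 0.05 in limma, with a median log2 fold change of -1.45 over the list. These were Bnip3 (mitophagy), Ankrd37, Egln1 (a prolyl hydroxylase of HIF-1α), Ndrg1, Slc2a1, the glycolytic genes Ldha, Pgk1 and Aldoa, Pdk1 (a brake on pyruvate oxidation), Ero1l (protein folding) and Higd1a (mitochondria). Their log2 fold changes ran from -2.70 for Bnip3 to -1.15 for Ldha, and 17 of the 20 had every HIF-1α-KD library below every Mock library. Of all tested genes, 0.383% passed as lower and 8.75% had every HIF-1α-KD library below every Mock library. Car9, a carbonic anhydrase, had the lowest log2 fold change of the list, -2.93 (SE 0.49), but did not pass (adjusted p = 0.0553 in limma). Eno1, another abundant glycolytic gene of the list, had a log2 fold change of -0.84 (adjusted p = 0.107 in limma). The list was chosen with results of these libraries known, so its direction is no independent evidence. The number of genes of the list called lower went from 11 to 0 without Mock replicate 3 and without HIF-1α-KD replicate 2, to 2 without Mock replicate 1, to 3 without HIF-1α-KD replicate 3 and to 5 without Mock replicate 2. Of 8 genes of HIF subunits and oxygen sensing, 7 were tested and none passed in limma, edgeR or DESeq2. Of these, 1 was lower (Hif1a) and 1 higher (Epas1, the subunit HIF-2α) at an unadjusted p under 0.05. Epas1 was scarce in both groups, with 0.19 to 0.713 FPKM in Mock and 0.77 to 1.02 FPKM with the knockdown. The rise of Epas1 was 1.03 on the log2 scale (adjusted p = 0.393 in limma) and 0.49 without Mock replicate 1. Arnt, the partner subunit, had 2334 to 2604 normalized counts in Mock and 2375 to 2490 in HIF-1α-KD libraries.

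**Figure D5:**
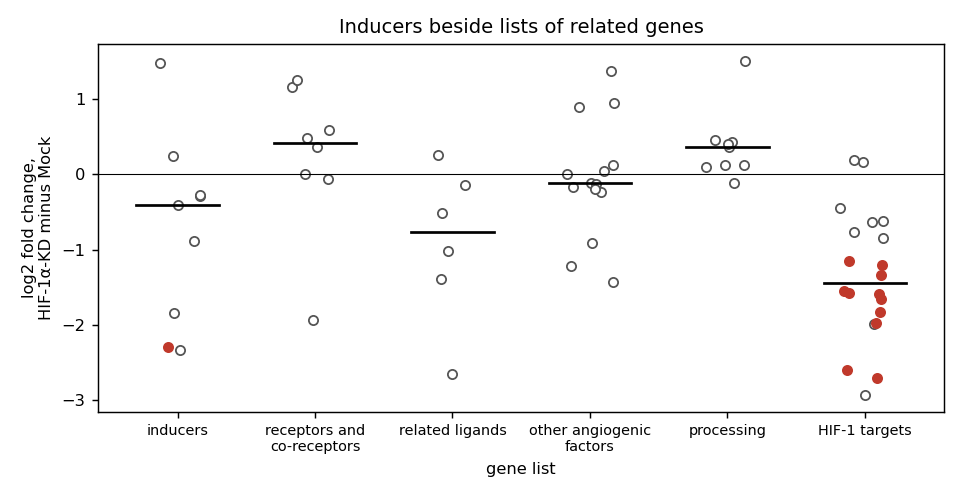
Log2 fold changes, HIF-1α-KD minus Mock (vertical axis), of the tested genes of the inducers and 5 lists (horizontal axis), with a circle per gene, filled where the adjusted p is under 0.05, and a bar at the median. The median is -0.41 for the inducers, 0.42 for the receptors and -1.45 for the HIF-1 targets, where 11 circles are filled.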

How the data were processed

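RNA of 3 Mock and 3 HIF-1α-KD libraries, grouped by their labels, was compared. According to the methods and the submitters' processing notes, the authors aligned reads with STAR to GRCm38 (the methods print GRCh38, but identifiers are mouse Ensembl), used featureCounts to count them and DESeq2 to test them. The authors deposited normalized counts, a signal of reads divided by 1 factor per library, and FPKM. Deposited columns of the authors' own comparison (log2 ratio, p-value, false discovery rate) and their cluster and presence marks were not used. Multiplying by each factor recovered whole reads for 100% of values up to 300 reads (tolerance 0.1 read).

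Genes were filtered with filterByExpr of edgeR 4.0.16 (minimum count 10), leaving 12014. The main test was the two-sided test of limma 3.58.1, run on log2(normalized count + 1) with a trend of variance on the mean, adjusted by Benjamini and Hochberg over these genes. An exact permutation test of 3 against 3 cannot go below p = 0.1. The pseudocount of 1 understates changes of low genes. Alternatives were edgeR and DESeq2 1.42.0 on recovered reads, other scalings, filters and pseudocounts, a replicate block, and leaving out each library. All tests were tested on simulated data. R 4.3.3, Python 3.11.15, pandas 2.3.3, numpy 2.4.6 and matplotlib 3.10.9 were used.

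Members and lists were chosen with earlier results of these data known. Named genes were the 9 inducers, Hif1a, the 3 nearest profiles of Apln and of Angptl4, and of each list every gene at an adjusted p under 0.05, the gene with the smallest p and the 2 with the highest mean FPKM. Lpl, Apela, Epas1, Flt1, Nrp1, Car9, Pdgfra, Pdgfrb, Cspg4, Rgs5, the receptors with too few reads and the absent markers were named after their values were seen. Gene positions are from GENCODE M21 (GRCm38).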

Additional observations from a re-analysis of the deposited data

How the results depend on the processing

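The 1 inducer called lower by limma (Apln) was also the 1 called by edgeR and under every other scaling, filter and pseudocount tried. DESeq2 called 2 (Apln and Angptl4). The count ranged from 0 to 1 with 1 library left out. Over all tested genes, 46 were called lower and 1 higher. DESeq2 called 187 and 96, edgeR called 0 higher beside 1493 genes at an unadjusted p under 0.05, and leaving out 1 library gave 0 to 32 lower and 0 to 6 higher. The cause was not tested.

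Libraries with the same replicate number did not deviate together (correlations -0.14, -0.12 and 0.02), so the numbers were not taken as pairs. With the replicate number as a block, limma called 0 genes lower, 0 higher and 0 inducers, beside 1324 genes at an unadjusted p under 0.05 and a log2 fold change of Apln of -2.30 (adjusted p = 0.0514). No library correlated best with its own number.

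The sign of the log2 fold change turned under some settings for 10 of the genes recomputed, of which limma called none. Angpt2 ranged from -0.12 to 0.43 with 1 library left out. Ramp2 was -0.02 with edgeR and TMM factors, -0.01 with DESeq2 and median-of-ratios factors, and -0.05 to 0.08 with 1 library left out. Arnt was 0.03 with total reads and -0.07 to 0.01 with 1 library left out. Cd68 was 0.01 with edgeR and 0.03 with DESeq2, and Tyrobp 0.18 and 0.20 with these and -0.87 to 0.29 with 1 library left out. Lyz2 ranged from -0.43 to 0.75, Lgals4 from -1.19 to 0.06, Krt8 from -1.52 to 0.86, Lpl from -0.51 to 0.52 and Pdgfra from -0.31 to 0.38 with 1 library left out. Adm and Angpt2 had too few reads for a minimum count of 50, and the low counts of Adm, 3 reads in 1 library, limit its precision.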
